A study of Rattus norvegicus with 6 samples.

Results

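The genes described here are 10 markers of the mesangial and contractile smooth muscle cells of the kidney glomerulus: DES, MYL9, FHL2, PDGFRB, ITGA8, GATA3, TAGLN, MYH11, THY1 and SERPINE2. They were found by their human symbols in the authors' tables of differential expression, where each symbol had 1 rat Ensembl gene, so they make up 10 of the 26319 genes in the count table. All 10 passed the filter on low counts, as did 13426 genes in all. Messenger RNA was sequenced from isolated glomeruli of Sprague Dawley rats in 3 groups of 2. The first group carried the AT1R Tg genotype (a transgene for the angiotensin II type 1 receptor) and received AC1903, which blocks TRPC5, a calcium-permeable cation channel. Its 2 rats were 23.0 and 20.4 weeks old. The second group carried AT1R Tg and received vehicle, at 20.4 and 17.4 weeks. The third group was wild type (WT), also labelled as given vehicle, at 20.4 and 21.9 weeks. The labels do not name the promoter of the transgene, the dose of AC1903 or the length of treatment. In the published line of this name the receptor is expressed in podocytes, which is background and was not checked here.

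Mesangial cells hold the capillary loops of the glomerulus together. They resemble pericytes and vascular smooth muscle cells, contract in response to angiotensin II, and depend during development on platelet-derived growth factor from the endothelium acting on PDGFRB. Contractile genes of smooth muscle are typically driven by serum response factor, which binds the CArG box in their regulatory DNA. In rats THY1 is known as the mesangial surface antigen targeted in anti-Thy1 nephritis, but other cells can carry it too. DES is also known as a marker of injured podocytes. Neither therefore belongs to mesangial cells alone in every setting.

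The AC1903 libraries held 12325515 and 12637582 expected counts, the vehicle libraries 13464600 and 14230770, and the WT libraries, the deepest, 25045081 and 36026772. Levels are given as normalised CPM, a count relative to the size of its library, and they compare the same gene between libraries, not different genes, because gene length is not taken into account. None of the 12 podocyte markers was at 0 in any library. Their summed level was 11044 and 14439 CPM in AC1903, 18281 and 9771 CPM in vehicle and 16822 and 14559 CPM in WT. The 10 mesangial and smooth muscle genes were also detected in every library, with summed levels of 822 and 921 CPM in AC1903, 1391 and 963 CPM in vehicle and 1021 and 1168 CPM in WT. In bulk RNA, fewer cells of a type and less RNA per cell cannot be told apart. The strand setting of the counting is not known, and in the rat RefSeq annotation DES, ITGA8 and GATA3 each overlap a long noncoding RNA gene whose reads may not be separable from theirs.

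Vehicle-treated AT1R Tg glomeruli were first set against WT, which asks how glomeruli with the transgene stand relative to normal ones. THY1 was 2.55-fold higher and DES 0.573-fold of WT, and these were the 2 members with an unadjusted p under 0.05. For both genes the vehicle and WT libraries did not overlap. Most of the other genes were close to WT: 8 of the 10 had a negative log2 change, with a median of -0.16 over the 10, where 53.4% of all genes tested were negative and their median was -0.03. None of the 10 passed an adjusted p of 0.05 in edgeR's quasi-likelihood test, which 0.0745% of all genes passed. By the unadjusted p the 2 of 10 stand beside 11.9% of all genes. In DESeq2 THY1 passed as higher (adjusted p = 0.00121) and DES as lower (adjusted p = 0.0143), where 4.25% of all genes passed, 3.85% as higher and 0.403% as lower. These 2 were also the members under 0.05 in the authors' deposited table, where 4.42% of genes were. The vehicle and WT libraries did not overlap for 5 of the 10 genes, 4 lower (DES, ITGA8, GATA3 and SERPINE2) and 1 higher (THY1). Of all genes 44% did not overlap, 23.4% lower and 20.6% higher.

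The AC1903 group was compared with the vehicle group to ask what the inhibitor changes in transgenic glomeruli. Of the 10 genes 9 had a negative log2 change and GATA3 a positive one. The median over the 10 was -0.50, while the median over all genes tested was -0.02 and 52.1% of them were negative. TAGLN, FHL2, THY1, MYL9 and DES had unadjusted p values under 0.05, all lower with AC1903. That is 5 of 10, where 8.12% of all genes had such a p in either direction. None of the 10 and 0% of all genes passed an adjusted p of 0.05 in edgeR's quasi-likelihood test, in which 1090 genes had an unadjusted p under 0.05. DESeq2 passed 67 genes (0.499%, with 0.439% higher and 0.0596% lower), and none of the 10 was among them. The groups did not overlap for DES, MYL9, FHL2 and THY1, all lower, which is 4 of 10 where 38.3% of all genes did not overlap, 18.4% lower and 19.9% higher.

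The AC1903 group was also set against WT, to show where treated transgenic glomeruli stood relative to normal ones. Here 7 of the 10 genes lay lower in both AC1903 libraries than in both WT libraries (DES, MYL9, FHL2, PDGFRB, ITGA8, MYH11 and SERPINE2), and THY1 lay higher in both. That is 8 of 10 without overlap, where 47.7% of all genes had none, 23.5% lower and 24.2% higher. Of the 10 genes 8 had a negative log2 change, as did 49.8% of all genes tested, and the median was -0.40 over the 10 and 0.0019 over all. DES was the nearest to the threshold in edgeR's quasi-likelihood test, with the 18th smallest p of 13426 genes and an adjusted p of 0.096. None of the 10 passed it, as 0.0372% of all genes did. The unadjusted p was under 0.05 for DES, MYL9, FHL2 and ITGA8, which is 4 of 10, where 11.1% of all genes had such a p. DESeq2 passed DES (adjusted p = 2.13e-06) and MYL9 (adjusted p = 0.0498), where 1.35% of all genes passed, 0.879% higher and 0.469% lower. This comparison shares its AC1903 libraries with the second comparison and its WT libraries with the first, so the 3 are not independent of each other.

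**Figure D1:**
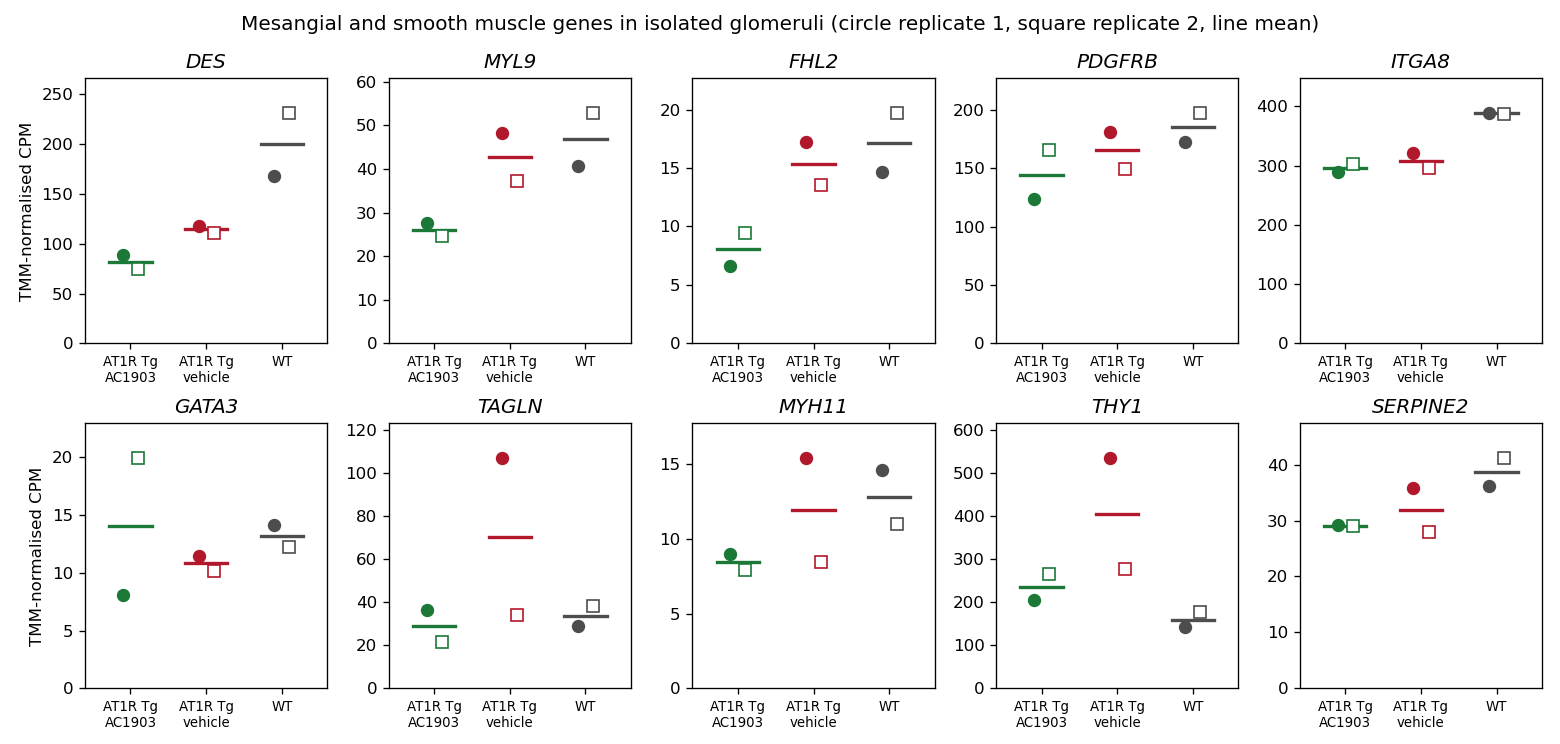
Normalised level (CPM, axes from 0) of each of the 10 genes in AT1R Tg AC1903, AT1R Tg vehicle and WT glomeruli. Circles are replicate 1, squares are replicate 2 and lines are means of 2. DES stands at 88.3 and 74.3 CPM in AC1903, 118 and 111 CPM in vehicle and 168 and 231 CPM in WT, with no overlap, while the vehicle replicates of TAGLN stand at 107 and 33.9 CPM.

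DES (ENSRNOG00000019810) encodes desmin, the intermediate filament of muscle and mesangial cells. It stood at 88.3 and 74.3 CPM with AC1903, at 118 and 111 CPM with vehicle, and at 168 and 231 CPM in WT. The 3 groups did not overlap, with AC1903 lowest, vehicle between and WT highest. In vehicle against WT the log2 change was -0.80 with SE 0.19 (edgeR adjusted p = 0.18). In the authors' deposited table of that comparison DES had a log2 change of -0.78 and an adjusted p of 0.0147. With AC1903 against vehicle the log2 change was -0.49 with SE 0.19 (edgeR adjusted p = 0.604), and the authors' deposited table gives -0.50 with an adjusted p of 0.761. Against WT, AC1903 had a log2 change of -1.30 with SE 0.20, that is 0.407 of the WT level. This value was between -1.51 and -1.05 over the 15 alternative ways of processing the data, and its adjusted p ranged from 2.13e-06 in DESeq2 to 0.832 in edgeR without WT replicate 2.

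The contractile apparatus was represented by MYL9, MYH11 and TAGLN. MYL9 (ENSRNOG00000020246) encodes the regulatory light chain of smooth muscle myosin, whose phosphorylation starts contraction. It stood at 27.5 and 24.6 CPM in AC1903, at 48.3 and 37.2 CPM in vehicle and at 40.7 and 52.9 CPM in WT. Vehicle and WT overlapped, and both AC1903 libraries lay below all 4 of the others. The log2 change was -0.71 with SE 0.21 in AC1903 against vehicle (edgeR adjusted p = 0.549). It was -0.84 with SE 0.20 in AC1903 against WT (edgeR adjusted p = 0.309) and -0.13 with SE 0.20 in vehicle against WT (edgeR adjusted p = 0.859). In the authors' deposited table MYL9 had a log2 change of -0.72 with AC1903 against vehicle, with an adjusted p of 0.478.

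MYH11 (ENSRNOG00000000029) encodes the heavy chain of smooth muscle myosin and was scarce, with 99 to 408 expected counts per library. Its level was 8.98 and 7.91 CPM in AC1903, 15.4 and 8.47 CPM in vehicle and 14.6 and 11 CPM in WT. The AC1903 libraries lay below WT but overlapped with vehicle, whose replicate 2 was about as low as AC1903. The log2 change with AC1903 was -0.50 with SE 0.33 against vehicle (edgeR adjusted p = 0.678) and -0.60 with SE 0.33 against WT (edgeR adjusted p = 0.511), and in vehicle against WT it was -0.10 with SE 0.32 (edgeR adjusted p = 0.94). Without vehicle replicate 1 the first of these was -0.0057.

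TAGLN (ENSRNOG00000017628) encodes transgelin, an actin-binding protein also called SM22. It stood at 36.5 and 21.8 CPM in AC1903, at 107 and 33.9 CPM in vehicle and at 29.1 and 38.5 CPM in WT. Vehicle replicate 1 stood apart from the other 5 libraries, which lay between 21.8 and 38.5 CPM. The log2 change was 1.06 with SE 0.47 in vehicle against WT (edgeR adjusted p = 0.426) and -1.28 with SE 0.48 in AC1903 against vehicle (edgeR adjusted p = 0.602). Without vehicle replicate 1 these values were 0.0028 and -0.22, so both rested on that library. With age as a covariate they were 1.81 and -2.28 (edgeR adjusted p = 0.113 and 0.229). The vehicle rats were 20.4 and 17.4 weeks old. Between AC1903 and WT the groups overlapped, with a log2 change of -0.21 and SE 0.47 (edgeR adjusted p = 0.886).

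FHL2 (ENSRNOG00000016866) encodes a LIM domain protein that acts as a cofactor of transcription and binds adhesion proteins. It stood at 6.65 and 9.43 CPM in AC1903, at 17.2 and 13.5 CPM in vehicle and at 14.6 and 19.7 CPM in WT. As for MYL9, vehicle and WT overlapped and both AC1903 libraries lay below all 4 of the others. The log2 change was -0.93 with SE 0.28 in AC1903 against vehicle (edgeR adjusted p = 0.549) and -1.09 with SE 0.28 in AC1903 against WT (edgeR adjusted p = 0.316). In vehicle against WT it was -0.16 with SE 0.27 (edgeR adjusted p = 0.866). FHL2 had 80 and 118 expected counts in the AC1903 libraries, which limits its precision. In the authors' deposited table FHL2 had a log2 change of -0.94 with AC1903 against vehicle and an adjusted p of 0.55.

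The promoters of the members were searched for the CArG box, the binding sequence of serum response factor. The pattern was CCWWWWWWGG, where W is A or T, and it finds the same places on both strands. RefSeq promoter windows on build GRCr8, 250 bases before to 50 bases after each start, were at hand for DES, FHL2, ITGA8, GATA3 and SERPINE2. FHL2 had 2 such windows, both on chromosome 9 and the minus strand, and each held 1 exact match. Of 33469 rat promoter windows 548 (1.64%) held a match. None of the windows of DES, ITGA8, GATA3 and SERPINE2 did, and none of the 26 windows of the other contractile smooth muscle genes did. Boxes that depart from this pattern or lie outside the windows were not searched for. MYL9, PDGFRB, TAGLN, MYH11 and THY1 had no window, so the search does not say which genes lack a CArG box. The sequences are shown because FHL2, of the 5 members with a window, is the one whose 2 starts both carry the box, with the DES window beside them. Capitals mark the match, and the 80 bases printed run from position -110 to -31 relative to the start. A match is a description of letters, not evidence of binding.
FHL2 at chr9:52923357-52923436, minus strand: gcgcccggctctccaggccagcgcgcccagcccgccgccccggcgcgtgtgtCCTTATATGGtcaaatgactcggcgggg
FHL2 at chr9:52954571-52954650, minus strand: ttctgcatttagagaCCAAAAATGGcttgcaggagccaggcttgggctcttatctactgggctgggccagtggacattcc
DES at chr9:84299516-84299595, plus strand: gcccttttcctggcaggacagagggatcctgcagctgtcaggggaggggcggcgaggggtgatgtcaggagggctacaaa
The match lies at positions -58 to -49 in the first FHL2 window and at -95 to -86 in the second. Which start the reads of these libraries came from is not given by gene counts. SRF, the gene of serum response factor itself, stood at 63.2 and 67.9 CPM in AC1903, at 93.2 and 68.2 CPM in vehicle and at 82.5 and 105 CPM in WT. Its log2 change was -0.22 with SE 0.20 in vehicle against WT (edgeR adjusted p = 0.74). It was -0.30 with SE 0.20 in AC1903 against vehicle (edgeR adjusted p = 0.683) and -0.52 with SE 0.20 in AC1903 against WT (edgeR adjusted p = 0.412).

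**Figure D2:**
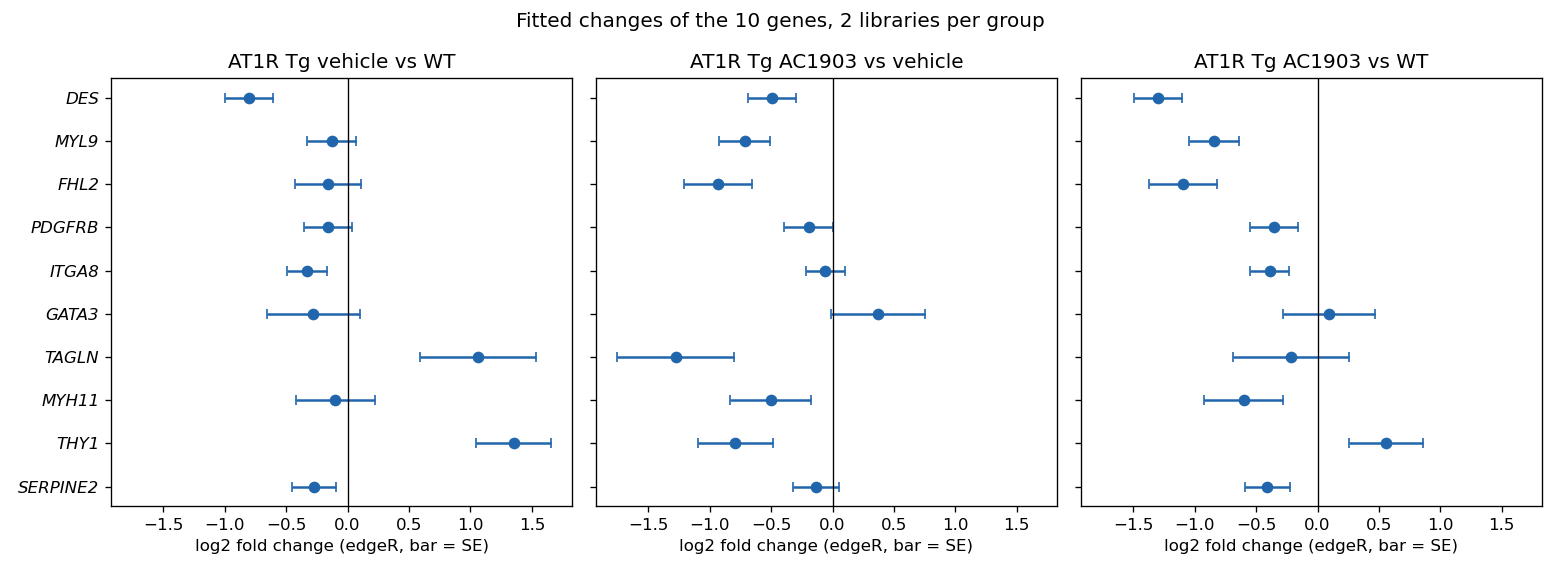
Log2 fold change of each of the 10 genes in AT1R Tg vehicle against WT, AT1R Tg AC1903 against AT1R Tg vehicle, and AT1R Tg AC1903 against WT, from edgeR's quasi-likelihood fit over all genes. Points are estimates and bars are SE. In vehicle against WT THY1 stands at 1.35 and DES at -0.80; with AC1903 against vehicle 9 of the 10 points lie below 0.

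Among surface receptors and adhesion proteins, THY1 (ENSRNOG00000006604), a glycolipid-anchored surface antigen, had the largest log2 change of the 10 in vehicle against WT. It stood at 204 and 265 CPM in AC1903, at 534 and 276 CPM in vehicle and at 142 and 176 CPM in WT. All 4 transgenic libraries lay above both WT libraries, and both vehicle libraries lay above both AC1903 libraries, although vehicle replicate 2 was only slightly above AC1903 replicate 2. The log2 change was 1.35 with SE 0.31 in vehicle against WT (edgeR adjusted p = 0.178). Without vehicle replicate 2 it was 1.75 and passed (edgeR adjusted p = 0.0327), and without vehicle replicate 1 it was 0.80 (edgeR adjusted p = 0.114). In the authors' deposited table THY1 had a log2 change of 1.38 in that comparison and an adjusted p of 0.00119. With AC1903 against vehicle the log2 change was -0.79 with SE 0.30 (edgeR adjusted p = 0.602), and -0.24 without vehicle replicate 1. Against WT, AC1903 had a log2 change of 0.56 with SE 0.30 (edgeR adjusted p = 0.511).

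Markers of other cells that can carry THY1 were read beside it. Of 8 fibroblast markers 6 had a gene ID, and none of the 6 was at 0. Their summed level was 156 and 147 CPM in AC1903, 411 and 169 CPM in vehicle and 76.4 and 76.9 CPM in WT. Most of that sum was COL1A1, a chain of type I collagen, at 136 and 121 CPM in AC1903, 368 and 131 CPM in vehicle and 47.1 and 48.3 CPM in WT. Vehicle replicate 1, the highest library for THY1 and TAGLN, was therefore also the highest for COL1A1. The other fibroblast markers did not all share the order of the sum. In AC1903 against WT the log2 change was 1.43 for COL1A1 and 0.43 for PDGFRA. It was -0.54 for COL1A2, -0.68 for COL3A1, -0.67 for DCN and -0.38 for DPT, with a median of -0.46 over the 6. In vehicle against WT 5 of the 6 were positive, with COL3A1 at -0.06 and a median of 1.06. In AC1903 against vehicle all 6 were negative, with a median of -0.83. The 6 lymphocyte markers with a gene ID, of 11, summed to 56.8 and 84.7 CPM in AC1903, 23.4 and 26.0 CPM in vehicle and 32.2 and 38.4 CPM in WT. Most of this sum was PTPRC, which marks all leukocytes, at 33.9 and 56.9 CPM in AC1903, 12.7 and 14.2 CPM in vehicle and 16.7 and 19.8 CPM in WT. The other lymphocyte markers did not all follow it: LCK stood at 8.73 and 4.40 CPM in AC1903, 5.38 and 3.58 CPM in vehicle and 6.46 and 6.91 CPM in WT. CD79A was at 0 in vehicle replicate 1 and CD79B in AC1903 replicate 2. The part of fibroblasts in the THY1 result was not tested.

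ITGA8 (ENSRNOG00000016538) encodes the integrin subunit alpha8, a surface marker of mesangial cells in the glomerulus. It stood at 289 and 304 CPM in AC1903, at 322 and 295 CPM in vehicle and at 389 and 387 CPM in WT. The 4 transgenic libraries overlapped with each other and all lay below both WT libraries. The log2 change was -0.33 with SE 0.16 in vehicle against WT (edgeR adjusted p = 0.479) and -0.39 with SE 0.16 in AC1903 against WT (edgeR adjusted p = 0.437). In AC1903 against vehicle it was -0.06 with SE 0.16 (edgeR adjusted p = 0.935). ITGB1, the beta subunit that pairs with it, stood at 1075 and 1314 CPM in AC1903, at 1589 and 1105 CPM in vehicle and at 1668 and 1628 CPM in WT. ITGB1 thus had the same split of transgenic and WT libraries, with a log2 change of -0.46 and SE 0.25 in AC1903 against WT (edgeR adjusted p = 0.504). NPNT, the gene of the ligand nephronectin, stood at 143 and 217 CPM in AC1903, at 246 and 103 CPM in vehicle and at 216 and 154 CPM in WT, and its groups overlapped. Of 8 integrin subunits, ligands and matrix partners of ITGA8 none passed in edgeR in any comparison. ITGA1, a collagen-binding alpha subunit, lay above WT in all 4 transgenic libraries, at 45.8 and 48.7 CPM in AC1903, 43.8 and 41.2 CPM in vehicle and 34.4 and 19.7 CPM in WT.

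PDGFRB (ENSRNOG00000018461) encodes the receptor for platelet-derived growth factor B. It stood at 123 and 166 CPM in AC1903, at 182 and 149 CPM in vehicle and at 173 and 197 CPM in WT. Only AC1903 and WT did not overlap, with a log2 change of -0.36 and SE 0.20 (edgeR adjusted p = 0.523). The changes were -0.16 with SE 0.20 in vehicle against WT and -0.19 with SE 0.20 in AC1903 against vehicle. Its ligand gene PDGFB stood at 52.6 and 46.2 CPM in AC1903, at 55.8 and 47.8 CPM in vehicle and at 56.0 and 59.1 CPM in WT. Of the 6 other PDGF ligand and receptor genes none passed in edgeR in any comparison. PDGFC, a ligand that acts mainly on the alpha receptor, had a log2 change of 2.03 with SE 0.61 in vehicle against WT, at 3.11 and 7.73 CPM in vehicle and 1.79 and 0.867 CPM in WT (edgeR adjusted p = 0.214). In DESeq2 its adjusted p was 0.04.

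GATA3 (ENSRNOG00000019336), a transcription factor of mesangial cells in the glomerulus and of collecting duct cells outside it, was the member whose AC1903 replicates differed most. It stood at 8.07 and 19.9 CPM in AC1903, at 11.5 and 10.2 CPM in vehicle and at 14.1 and 12.2 CPM in WT. The AC1903 libraries were the lowest and the highest of the 6. In the main edgeR fit of all 6 libraries the smallest adjusted p of GATA3 over the comparisons was 0.799. The log2 change with AC1903 against vehicle, 0.37 with SE 0.38, was -0.46 without AC1903 replicate 2. The changes were 0.09 in AC1903 against WT and -0.28 in vehicle against WT, each with SE 0.38. The 10 collecting duct markers with a gene ID, of 11, summed to 90.1 and 153 CPM in AC1903, 117 and 133 CPM in vehicle and 128 and 92.5 CPM in WT, with none at 0, so AC1903 replicate 2 was highest for both. The markers did not all share the order of this sum. AQP2 was highest in AC1903 replicate 2, at 44.7 CPM. AQP3 was highest in vehicle replicate 2, at 56.2 CPM, and stood at 35.5 CPM in AC1903 replicate 2. The part of these markers in the GATA3 level was not tested.

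SERPINE2 (ENSRNOG00000015461) encodes protease nexin-1, a secreted inhibitor of thrombin and of plasminogen activators that mesangial cells make. It stood at 29.1 CPM in both AC1903 libraries, at 35.9 and 28 CPM in vehicle and at 36.1 and 41.2 CPM in WT. All 4 transgenic libraries lay below both WT libraries, with vehicle replicate 1 close to the lower of them. The log2 change was -0.27 with SE 0.18 in vehicle against WT (edgeR adjusted p = 0.62), -0.13 with SE 0.18 in AC1903 against vehicle (edgeR adjusted p = 0.854), and -0.41 with SE 0.18 in AC1903 against WT (edgeR adjusted p = 0.454). Of its target proteases and partners, PLAT, which encodes tissue-type plasminogen activator, had 1259 and 1416 CPM in AC1903, 1396 and 967 CPM in vehicle and 2090 and 1926 CPM in WT. PLAT passed in DESeq2 in vehicle against WT (adjusted p = 0.0207) and had an edgeR adjusted p of 0.238. PRSS8, the gene of the epithelial protease prostasin, lay the other way in that comparison, at 71.4 and 108 CPM in vehicle and 48.2 and 36.1 CPM in WT, with a log2 change of 1.09 and SE 0.23 (edgeR adjusted p = 0.178). PRSS8 passed in DESeq2 too, as higher in vehicle (adjusted p = 0.00331). PLAU, the urokinase gene, and F2, the thrombin gene, had log2 changes of 1.05 and 1.54 there (edgeR adjusted p = 0.247 and 0.263). F2R, a thrombin receptor, stood at 19.3 and 19.1 CPM in AC1903, at 14.6 and 10.2 CPM in vehicle and at 17.7 and 15.6 CPM in WT, so both AC1903 libraries lay above the other 4.

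The 2 rats of a group differed to varying degrees. The median absolute log2 difference between replicates over the 10 genes was 0.31 in AC1903, 0.34 in vehicle and 0.34 in WT, where over all genes tested it was 0.25, 0.30 and 0.22. The largest such differences were 1.65 for TAGLN and 0.95 for THY1 in vehicle and 1.25 for GATA3 in AC1903. By the median over the 10 genes relative to the WT mean, the AC1903 libraries lay at -0.53 and -0.50, the vehicle libraries at -0.004 and -0.34, and the WT libraries at -0.13 and 0.13. The 2 AC1903 libraries were thus lowest and close to each other, and the 2 vehicle libraries were further apart.

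Other genes of smooth muscle contraction did not pass in edgeR in any comparison. Of 26 genes listed 19 had a gene ID, with 23 IDs tested. The expression of ACTA2, CNN1, LMOD1, TPM1, PLN, KCNMB1 and KCNMA1 was not analysed here. The median log2 change over the 23 was -0.06 in vehicle against WT, -0.20 in AC1903 against vehicle and -0.10 in AC1903 against WT. In AC1903 against vehicle 16 of the 23 were negative and 7 positive. Of the IDs of MYL6, a myosin light chain, 3 had identical counts in every library, and the others had levels of their own. With the identical 3 counted once, 14 of 21 were negative. The medians were then -0.0085, -0.21 and -0.09 in the same order of comparisons. TPM2, beta-tropomyosin of the thin filament, had the pattern of MYL9 and FHL2, at 14.0 and 17.1 CPM in AC1903, 29.6 and 26.5 CPM in vehicle and 23.7 and 30.0 CPM in WT. Its log2 change was -0.85 with SE 0.21 in AC1903 against vehicle (edgeR adjusted p = 0.538). SMTN, smoothelin, stood at 60.5 and 58.8 CPM in AC1903, at 81.6 and 76.7 CPM in vehicle and at 71.1 and 80.2 CPM in WT. Both AC1903 libraries lay below the other 4, and the log2 change against vehicle was -0.41 with SE 0.15 (edgeR adjusted p = 0.602).

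Other contractile genes lay the opposite way. SYNM, synemin, an intermediate filament protein that assembles with desmin, stood at 81.2 and 62.0 CPM in AC1903, at 51.5 and 42.3 CPM in vehicle and at 53.3 and 46.5 CPM in WT. It was highest with AC1903, where DES was lowest, with a log2 change of 0.61 and SE 0.19 against vehicle (edgeR adjusted p = 0.549). PPP1R12B, a regulatory subunit of myosin phosphatase, which removes phosphate from myosin light chains, stood at 31.8 and 24.1 CPM in AC1903, at 16.9 and 16.6 CPM in vehicle and at 24.5 and 21.4 CPM in WT. Its vehicle libraries were the lowest 2 of the 6. The log2 change in AC1903 against vehicle was 0.74 with SE 0.20 (edgeR adjusted p = 0.549).

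Of 20 other mesangial and pericyte markers 19 had a gene ID, with 20 IDs tested, and none passed in edgeR. The median log2 change was -0.21 in vehicle against WT, -0.25 in AC1903 against vehicle and -0.40 in AC1903 against WT, with 15, 16 and 16 of the 20 negative. The angiotensin II receptor symbol AGTR1 has 2 rat genes in these tables. The first (ENSRNOG00000010640) stood at 59.2 and 65.3 CPM in AC1903, at 99.3 and 95.5 CPM in vehicle and at 98.2 and 151 CPM in WT. The second (ENSRNOG00000018346) stood at 56.1 and 70.6 CPM in AC1903, at 87.8 and 89.9 CPM in vehicle and at 85.3 and 112 CPM in WT. Both AC1903 libraries lay below the other 4 for both genes. The log2 changes in AC1903 against WT were -0.999 with SE 0.21 and -0.64 with SE 0.19 (edgeR adjusted p = 0.308 and 0.354), and in that comparison the first had a DESeq2 adjusted p of 0.00753. In AC1903 against vehicle they were -0.65 and -0.49 (edgeR adjusted p = 0.562 and 0.602), and in vehicle against WT -0.35 and -0.15 (edgeR adjusted p = 0.575 and 0.815). Reads may be divided between these 2 genes, which share much of their sequence. The transgene also encodes an angiotensin II type 1 receptor, and whether its reads fell on these 2 genes was not tested.

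EDNRB, an endothelin receptor also made by endothelium, lay opposite to 9 of the 10 genes in AC1903 against vehicle, at 938 and 636 CPM in AC1903, 470 and 460 CPM in vehicle and 575 and 505 CPM in WT. Its log2 change was 0.76 with SE 0.22 (edgeR adjusted p = 0.549). Of 20 regulators of smooth muscle transcription 17 were tested and none passed in edgeR, with median log2 changes of -0.12 in vehicle against WT, 0.11 in AC1903 against vehicle and 0.12 in AC1903 against WT.

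**Figure D3:**
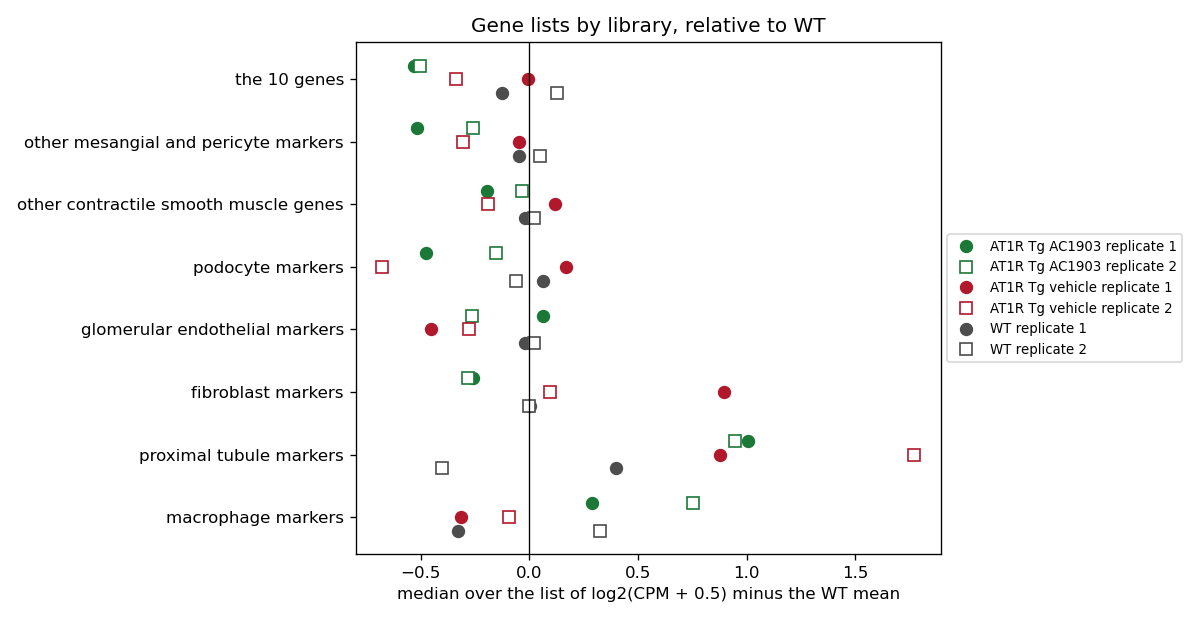
Median over each gene list of log2(CPM + 0.5) minus the WT mean, for each of the 6 libraries (AT1R Tg AC1903 green, AT1R Tg vehicle red, WT grey; circles replicate 1, squares replicate 2). The 10 genes lie at -0.53 and -0.50 in AC1903, and proximal tubule markers lie at 1.005 and 0.95 in AC1903 and at 0.88 and 1.77 in vehicle.

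The make-up of the libraries differed along with these genes. Of 10 proximal tubule markers 9 had a gene ID, and none of the 9 was at 0 in any library. They summed to 2578 and 2584 CPM in AC1903, 2405 and 4605 CPM in vehicle and 1762 and 1176 CPM in WT, so all 4 transgenic libraries were above WT. The 11 glomerular endothelial markers, none at 0, summed to 7795 and 5618 CPM in AC1903, 4970 and 5765 CPM in vehicle and 7003 and 7057 CPM in WT. Their median log2 change was -0.36 in vehicle against WT and 0.25 in AC1903 against vehicle, so in the second comparison endothelial and mesangial genes differed in sign. The 12 podocyte markers had median log2 changes of -0.21 in vehicle against WT, -0.01 in AC1903 against vehicle and -0.23 in AC1903 against WT. The 9 macrophage markers, none at 0, summed to 142 and 212 CPM in AC1903, 86.3 and 109 CPM in vehicle and 88.2 and 149 CPM in WT. The part of this make-up in the levels of the 10 genes was not tested.

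The levels of the members over the 6 libraries were alike to different degrees. The highest Pearson correlations of log2 CPM among the 45 pairs were 0.922 for MYL9 with FHL2, 0.896 for DES with ITGA8 and 0.888 for ITGA8 with SERPINE2. THY1 went against DES and ITGA8, with r of -0.42 and -0.51, and TAGLN was closest to THY1, with r of 0.722. Among 9739 genes, the 5 most like PDGFRB were FAM118A, BGN, SLCO1A2, RNF220 and SET, with r of 0.9885 to 0.9936. The 5 most like ITGA8 were EMP2, NSRP1, SPEG, CFDP1 and RHBDL3, with r of 0.9895 to 0.992. For MYH11 they were SP2, LIN54, SLC30A6, DDX11 and COPB1 (r of 0.975 to 0.9869), and for TAGLN PDCD2L, VBP1, FAM92A1, MRPL53 and TMEM199 (r of 0.9785 to 0.9923). The 6 libraries fall into 3 groups and differ in depth and make-up, so these values are descriptions of 6 points, in which many of 9739 genes must lie close.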

How the data were processed

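Group, replicate and age of each rat come from its label. Expected counts per Ensembl gene were deposited by the authors, and the submitters' processing notes name STAR 2.5.2b, RSEM 1.3.0 and build Rnor_5.0. Neither annotation release nor strand setting is given in the sources used here. For 2 comparisons the authors deposited log2 fold changes and adjusted p-values, per the file headers, without naming the tool.

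Expected counts were rounded, filtered with filterByExpr by group (13426 of 26319 genes left) and scaled by TMM. All 6 libraries entered one edgeR quasi-likelihood fit (edgeR 4.0.16, R 4.3.3; 3 residual degrees of freedom). Its p-values are two-sided and Benjamini-Hochberg adjusted over the genes tested, with 0.05 as the threshold. The code was tested on simulated data. DESeq2 1.42.0 and limma-voom (limma 3.58.1) served as alternatives. A permutation of 2 libraries against 2 cannot go below a p of 0.3333. A count of 0 allows up to 3 counts, or 0.0813 to 0.25 CPM by library, for counting error alone. Within each group the 2 libraries, whose ages differ, varied beyond sampling noise (chi-square per degree of freedom 19.3 to 95.4).

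The 10 genes and the lists were chosen with earlier results of these data known. By rule the text names every member in every comparison, up to 4 genes of a list by smallest p in the comparison described, AGTR1, and the 5 genes most like each of 4 members. ITGB1, NPNT, PDGFB, SRF, MYL6 and the fibroblast, lymphocyte and collecting duct markers were named outside it. They were chosen for their role or their value beside a member, after their values were seen. One gene the rule would name is not reported here.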

Additional observations from a re-analysis of the deposited data

How the results depend on the processing

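Of 450 values of a member's log2 change under 15 alternatives, 422 kept their direction and their side of the threshold, 12 passed the threshold under the alternative and 16 had the opposite sign; the cause was not tested. Members passing in vehicle against WT were 0 in edgeR, 2 in DESeq2, 3 with no filter on low counts and 0 to 1 with 1 library left out (THY1 without vehicle replicate 2). In AC1903 against vehicle 1 passed with no filter (TAGLN), and in AC1903 against WT 2 in DESeq2 and 3 with no filter (DES, MYL9 and FHL2). Genes passing in vehicle against WT were 10 in edgeR, 560 in DESeq2, 774 with no filter, 4 with a replicate block, 4 with age as a covariate, 4 from the 2 groups alone and 1 (without WT replicate 1) to 530 (without vehicle replicate 1) with 1 library left out, with 24 without vehicle replicate 2. In AC1903 against vehicle they were 0 in edgeR, 67 in DESeq2, 114 with no filter, 2 with a replicate block, 1 with age and 0 to 4 with 1 library left out. In AC1903 against WT they were 5 in edgeR, 181 in DESeq2, 464 with no filter, 21 from the 2 groups alone and 1 to 25 with 1 library left out. Same-numbered libraries did not deviate together (correlations of -0.08, -0.005 and -0.03). These values gave no sign that the numbers pair the rats, but with 2 libraries per group they cannot exclude it. The replicate block changed no call of a member.

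Signs turned as follows. In vehicle against WT, age as a covariate gave 0.13 for MYL9 and 0.14 for MYH11. With 1 library left out, log2 changes in vehicle against WT ran from -0.333 to 0.0697 for MYL9, from -0.363 to 0.0669 for FHL2 and from -0.601 to 0.27 for MYH11. In AC1903 against vehicle they ran from -0.129 to 0.000896 for ITGA8, from -0.46 to 0.842 for GATA3 and from -0.311 to 0.0532 for SERPINE2. In AC1903 against WT they ran from -0.71 to 0.587 for GATA3 and from -0.643 to 0.10 for TAGLN, and limma-voom gave -0.0268 for GATA3. The single library left in a group is assumed to vary like the others.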
